A study of Mus musculus with 9 samples.

Results

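The genes described here are 6 genes best known from plasmacytoid dendritic cells (pDCs), namely Tcf4, Bcl11a, Runx2, Spib, Siglech and Ly6d. They were picked by symbol, and each has a row among the 24532 genes of the deposited expression table. RNA sequencing was done on peritoneal myeloid cells of 8 weeks old C57BL/6 mice, all sorted as positive for major histocompatibility complex class II (MHCII). The 5 sorted groups are defined by the integrin CD11c and by CD115, the CSF-1 receptor. P-IV.I cells, CD11c+ CD115+, are called peritoneal dendritic cells in the labels. PcDC2 and PcDC1 cells, both CD11c+ CD115-, are the type 2 and the type 1 dendritic cells. P-IV.II cells, CD11c+ CD115+ like P-IV.I, and SPM cells, CD11c- CD115+, are both labelled small peritoneal macrophages. PcDC1 has 1 library and each of the other groups has 2, no treatment or mutation is named for any group, and no group is labelled as pDCs. Whether the 2 libraries of a group came from separate mice is not stated, so a p-value here speaks only of the spread between these samples.

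A pDC is a dendritic cell specialised for type I interferon release after its endosomal receptors meet viral nucleic acid. Its identity rests on the E protein TCF4, a basic helix-loop-helix factor that binds the short DNA motif called the E-box and is held in check by the inhibitor ID2, which conventional dendritic cells carry. BCL11A, SPIB and RUNX2 are further transcription factors of pDCs, SIGLEC-H is a sialic-acid-binding surface receptor of mouse pDCs, and LY6D is a lipid-anchored surface protein of lymphoid progenitors, B cells and pDC precursors. BCL11A and SPIB also act in B cells, and RUNX2 is known above all from bone.

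The values are FPKM, that is, fragment values scaled for transcript length and for library size. Their total per library was 439597 to 647385, a library held 9115 to 9847 genes at 1 FPKM or more, and sequencing depth is unknown. Replicate libraries had a Pearson's r of 0.950 to 0.973 over genes. The labels of the groups were checked against markers. The 6 conventional dendritic cell markers (Flt3, Zbtb46, Kit, Itgax, Ccr7 and Dpp4) summed to 425 and 488 FPKM in P-IV.I, to 622 and 858 in PcDC2 and to 247 in PcDC1, against 68.7 and 53.7 in P-IV.II and 18.3 and 26.2 in SPM. The 8 macrophage markers summed to 300 and 434 FPKM in P-IV.I cells, 27.7 and 43.9 in PcDC2 and 12.8 in PcDC1, against 1986 and 1613 in P-IV.II and 7577 and 5144 in SPM. P-IV.I held more macrophage marker RNA than PcDC2. Itgax and Csf1r, which encode CD11c and CD115, are among these markers and were used in the sort.

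Of the 10 pDC markers used to look for pDCs themselves, which include Tcf4, Siglech and Ly6d, 2 to 3 were listed at 0 in each P-IV.I library, 0 and 2 in the PcDC2 libraries and 3 in PcDC1, against 3 to 4 in each P-IV.II and SPM library. Cox6a2, a muscle-type cytochrome oxidase subunit of mouse pDCs, reached 0.147 and 0.178 FPKM in PcDC2 and 0.659 in PcDC1, and was listed at 0 in all P-IV.I, P-IV.II and SPM libraries. Klk1, a kallikrein with close paralogs, was listed at 0 in every library but PcDC2 replicate 1, which had 0.352 FPKM. Ccr9, the chemokine receptor of circulating pDCs, had 1.08 and 1.28 FPKM in P-IV.I cells, 1.05 and 0.848 in PcDC2 and 1.54 in PcDC1, against 0 and 0.0268 in P-IV.II and 0.412 and 0.0944 in SPM. The summed level of the 10 markers did not separate the groups, at 90.5 and 61.2 FPKM in P-IV.I cells, 92.2 and 95.1 in PcDC2 and 130 in PcDC1, against 91.6 and 73.9 in P-IV.II and 90.7 and 42.8 in SPM. It was not tested whether a few pDCs in a gate contribute to the values below. Bst2, an interferon-inducible tether of virions found on many cells, made up 22.0 to 110 FPKM of these sums. Smim5, another of the markers, made up 0 to 35.1 FPKM and was highest in P-IV.II, at 28.4 and 35.1. Markers of low level therefore count for little in the sums. Among them, Pacsin1 reached 0.857 and 0.865 FPKM in the PcDC2 libraries and at most 0.232 elsewhere. Dntt differed, with its highest levels, 0.69 and 0.60 FPKM, in P-IV.II. Neither gene reached 1 FPKM in any library, so neither was tested.

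Tcf4, Bcl11a, Runx2 and Spib were higher in the dendritic groups P-IV.I and PcDC2 than in both macrophage groups, Siglech was higher in PcDC2 than in the other 3 replicated groups, and Ly6d passed in no comparison. Differences were tested with limma on log2(FPKM + 1) over the 10526 genes that reached an FPKM of 1 in at least 2 libraries, with a Benjamini-Hochberg adjusted p under 0.05 as the threshold. A group over another means the log2 fold change of the first relative to the second. Calls were repeated under up to 13 alternatives per gene, among them other pseudocounts, other filters, rescaling of the libraries and leaving out each library. In P-IV.I over P-IV.II 4 of the 6 genes were higher and 0 lower, where 9.61% of all tested genes passed in either direction, 6.51% of the tested genes as higher and 3.11% as lower. In PcDC2 over SPM 5 of 6 were higher, against 19.7% of genes in either direction, 11.2% higher and 8.46% lower. In P-IV.I over SPM 4 were higher, against 11.0% of genes in either direction, 6.41% higher and 4.58% lower, and in PcDC2 over P-IV.II 5 were higher, against 20.7% in either direction, 13.2% higher and 7.52% lower. In P-IV.II over SPM 0 of 6 passed, and 0 had an unadjusted p under 0.05, where 1.14% of genes passed by limma, 0.238% as higher and 0.903% as lower. In P-IV.I over PcDC2 Siglech was lower and the other 5 did not pass, where 0.732% of genes passed, 0.599% as higher and 0.133% as lower. The median log2 fold change of the 6 genes was 1.38 in P-IV.I over P-IV.II and 2.05 in PcDC2 over SPM, beside 0.19 and 0.13 over all tested genes. These comparisons share libraries, so their calls are not independent of each other.

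All 6 genes passed the filter on low values, but not through the same groups. Tcf4, Bcl11a and Ly6d reached an FPKM of 1 in all 9 libraries. Siglech did so only in the 2 PcDC2 libraries, and Runx2 only in P-IV.I, PcDC2 and PcDC1, so these genes could be tested only because they were high there. The counts of higher genes above include Runx2 and, for PcDC2, Siglech. Spib reached it in 6 libraries, 1 each of P-IV.II and SPM among them. In bulk libraries fewer cells that express a gene and less of its RNA per cell cannot be told apart.

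**Figure D1:**
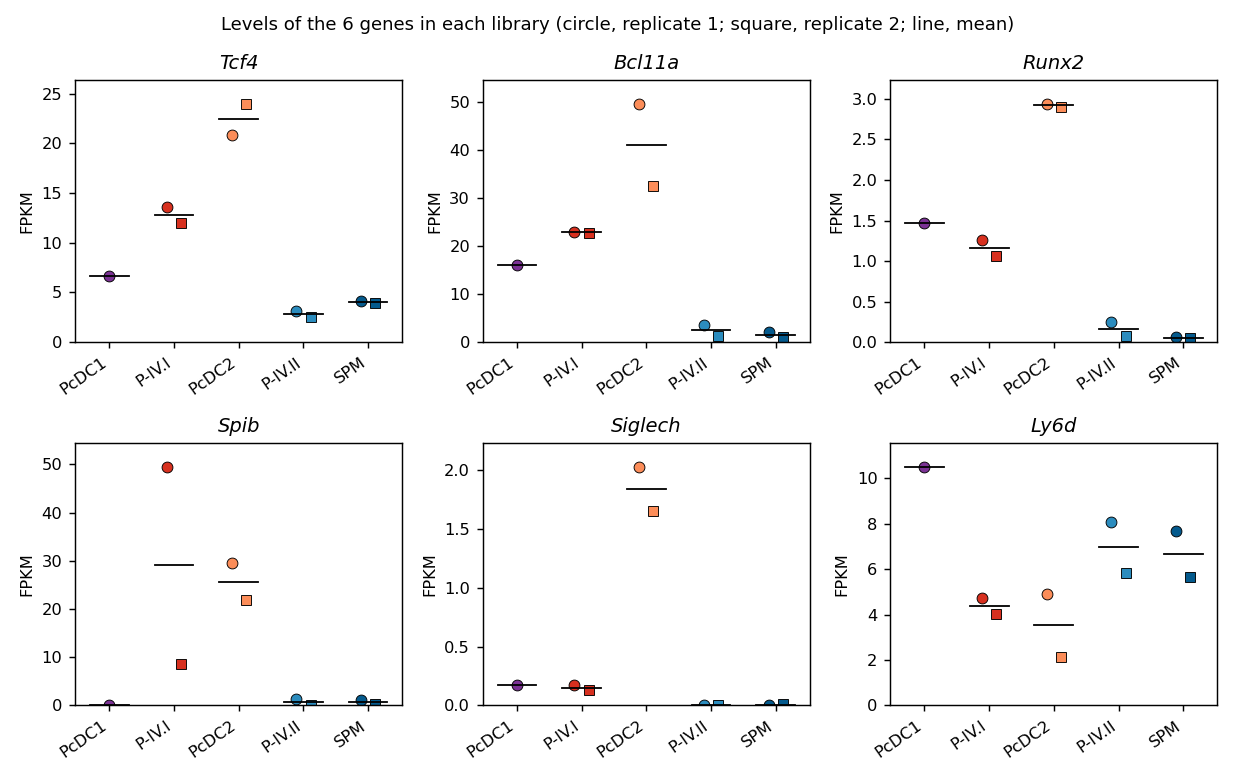
Level of each of the 6 genes, with 1 panel per gene, sorted groups along the x axis and FPKM from 0 on the y axis, where circles and squares are replicates 1 and 2 and lines are group means. Tcf4, Bcl11a and Runx2 sit highest in PcDC2 and next in P-IV.I or PcDC1, Siglech stands out in PcDC2 at 2.03 and 1.65 FPKM, and Ly6d is highest in PcDC1 at 10.5 FPKM.

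Tcf4 (Entrez 21413) spans chr18:69343429-69687967 on the plus strand of GRCm38.p6, whose coordinates are those of mm10. It had 13.6 and 12.0 FPKM in P-IV.I cells, 20.8 and 24.0 in PcDC2 and 6.63 in PcDC1, against 3.11 and 2.52 in P-IV.II and 4.16 and 3.93 in SPM. The 4 libraries of P-IV.I and PcDC2 all lay above the 4 macrophage libraries, with PcDC1 between them. These levels placed Tcf4 above 87.0% and 88.1% of the genes of the table in the PcDC2 libraries, and above 69.3% and 68.4% in P-IV.II. Tcf4 was higher by 1.86 ± 0.23 (log2 fold change ± SE, 2 libraries per group) in P-IV.I over P-IV.II, at adjusted p = 0.00292, and by 2.21 ± 0.23 in PcDC2 over SPM, at adjusted p = 0.000381. It was also higher by 1.45 ± 0.23 in P-IV.I over SPM (adjusted p = 0.00605) and by 2.62 ± 0.23 in PcDC2 over P-IV.II (adjusted p = 0.000216). Without P-IV.I replicate 1 the change from SPM was 1.36 and did not pass (adjusted p = 0.0522). P-IV.I and PcDC2 libraries did not overlap, at 12.8 ± 1.12 and 22.4 ± 2.23 FPKM (SD, n = 2 each), but their log2 difference of -0.76 ± 0.23 did not pass (adjusted p = 0.318). Nor did that of -0.41 ± 0.23 between P-IV.II, at 2.82 ± 0.420 FPKM, and SPM, at 4.05 ± 0.161 FPKM (adjusted p = 0.572).

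The other E proteins did not follow Tcf4. Tcf3, which encodes E2A, had 26.1 and 36.5 FPKM in P-IV.I and 32.2 and 27.6 in PcDC2, against 20.0 and 24.7 in P-IV.II and 21.7 and 32.7 in SPM, and did not pass (log2 fold changes of 0.46 ± 0.29 and 0.15 ± 0.29, adjusted p = 0.343 and 0.754 in P-IV.I over P-IV.II and PcDC2 over SPM). Tcf12, which encodes HEB, did not pass either, at 0.52 ± 0.28 (adjusted p = 0.270) and 0.07 ± 0.28 (adjusted p = 0.882). As a share of the summed FPKM of Tcf3, Tcf4 and Tcf12, Tcf4 made up 29.1% and 20.9% in P-IV.I cells, 35.2% and 40.4% in PcDC2 and 32.4% in PcDC1, against 11.3% and 7.56% in P-IV.II and 13.2% and 8.88% in SPM. The dendritic and the macrophage libraries did not overlap in this share.

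Id2, which encodes an inhibitor of E proteins that conventional dendritic cells need, moved the other way. It had 152 and 141 FPKM in P-IV.I cells, 61.7 and 88.9 in PcDC2 and 2956 in PcDC1, against 660 and 446 in P-IV.II and 319 and 152 in SPM. It fell by 1.88 ± 0.39 on the log2 scale in P-IV.I over P-IV.II (adjusted p = 0.0226) and by 1.56 ± 0.39 in PcDC2 over SPM (adjusted p = 0.0256). The first call was lost with no filter on low values and without any of the 4 libraries concerned (adjusted p of 0.0580 to 0.104), the second with no filter and without SPM replicate 1 or either PcDC2 library (adjusted p of 0.0638 to 0.158). There were 11.2 and 11.8 FPKM of Id2 per FPKM of Tcf4 in P-IV.I cells, 2.96 and 3.71 in PcDC2 and 446 in PcDC1, against 212 and 177 in P-IV.II and 76.7 and 38.7 in SPM. PcDC1 was the library with the highest ratio and PcDC2 the group with the lowest. Id2 exceeded the summed E proteins in every library, at ratios from 1.04 in PcDC2 replicate 1 to 144 in PcDC1. Of the other inhibitors, Id3 had 191 and 140 FPKM in P-IV.I and 142 and 216 in PcDC2, against 83.6 and 19.6 in P-IV.II and 53.9 and 10.4 in SPM. It was higher in PcDC2 over SPM by 2.82 ± 0.81 (adjusted p = 0.0439), a call lost after median-ratio rescaling (adjusted p = 0.0514), with no filter on low values (adjusted p = 0.113) and without SPM replicate 2 or either PcDC2 library (adjusted p of 0.111 to 0.215), and it did not pass in P-IV.I over P-IV.II (1.98 ± 0.81, adjusted p = 0.166). Id1 was higher by 1.36 ± 0.31 (adjusted p = 0.0326) and 1.87 ± 0.31 (adjusted p = 0.00412), the first of which was lost with both other pseudocounts, with no filter and without any of the 4 libraries concerned (adjusted p of 0.0792 to 0.162). Of the 5 tested genes of this group other than Tcf4, 1 was higher and 1 lower in P-IV.I over P-IV.II, and 2 were higher and 1 lower in PcDC2 over SPM. These calls are 40% and 60% of the 5, beside 9.61% and 19.7% of all tested genes.

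**Figure D2:**
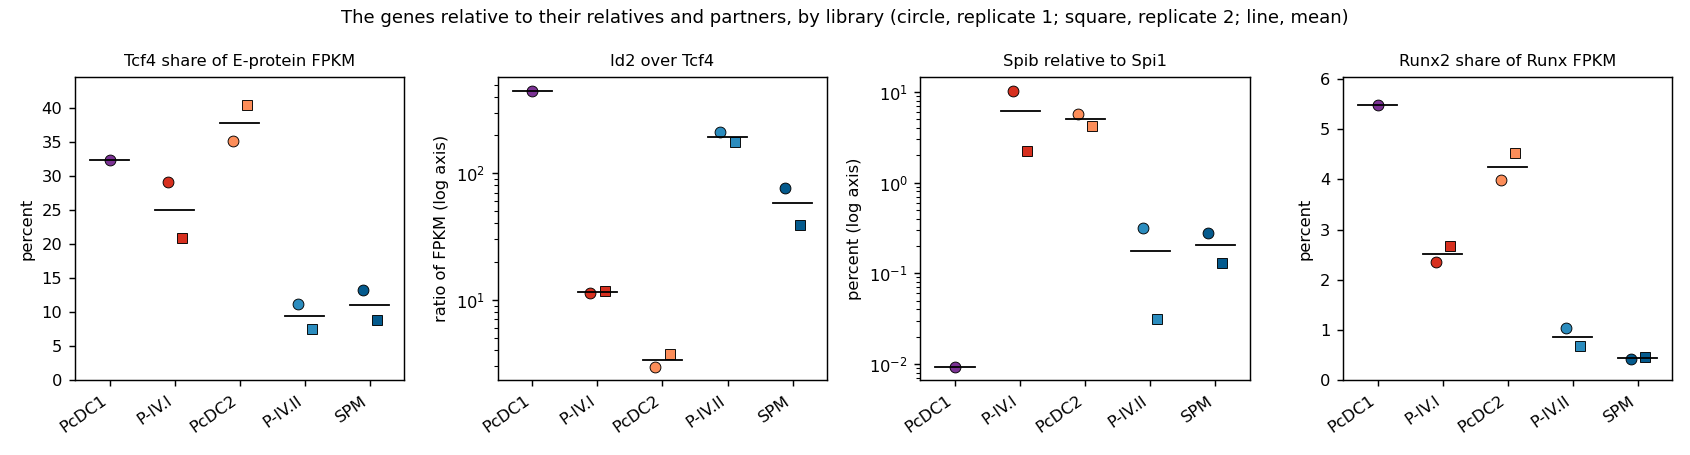
Levels relative to family members by library and sorted group. The panels show the share of Tcf4 in the summed FPKM of Tcf3, Tcf4 and Tcf12 (percent), Id2 over Tcf4 (ratio, log axis), Spib relative to Spi1 (percent, log axis) and the share of Runx2 in the summed FPKM of the Runx genes (percent), with circles and squares for replicates 1 and 2 and lines for means; Id2 over Tcf4 runs from 2.96 in PcDC2 to 446 in PcDC1.

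Bcl11a (Entrez 14025, chr11:24076564-24173558, plus strand) encodes a zinc-finger repressor without which neither B cells nor pDCs form. It had 22.9 and 22.7 FPKM in P-IV.I cells, 49.6 and 32.4 in PcDC2 and 16.0 in PcDC1, against 3.63 and 1.37 in P-IV.II and 2.03 and 1.10 in SPM. All 5 dendritic libraries lay above all 4 macrophage libraries, and Bcl11a stood above 87.7% of genes in both P-IV.I libraries against 70.5% and 64.1% in P-IV.II. Its log2 level was higher by 2.85 ± 0.38 in P-IV.I over P-IV.II (adjusted p = 0.00350), by 4.03 ± 0.38 in PcDC2 over SPM (adjusted p = 0.000232), by 3.24 ± 0.38 in P-IV.I over SPM (adjusted p = 0.00148) and by 3.64 ± 0.38 in PcDC2 over P-IV.II (adjusted p = 0.000468). Each of these 4 calls held under all 13 alternatives, with adjusted p up to 0.0304. P-IV.I averaged 22.8 ± 0.166 FPKM and PcDC2 41.0 ± 12.2 (SD, n = 2 each), and their difference of -0.79 ± 0.38 did not pass (adjusted p = 0.794). P-IV.II over SPM was 0.39 ± 0.38 (adjusted p = 0.720). Its paralog Bcl11b, a T cell factor, stayed between 0 and 0.887 FPKM and was not tested. Bcl11a overlaps the antisense genes Gm12064 and 4930538E20Rik and, on its own strand, Gm12063. Whether strand was used in counting is not stated, so their reads and those of Bcl11a cannot be told apart.

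Runx2 (Entrez 12393, chr17:44495987-44814797, minus strand), a Runt-domain factor that pDCs need to leave the bone marrow, was a scarce transcript. It had 1.26 and 1.07 FPKM in P-IV.I cells, 2.94 and 2.91 in PcDC2 and 1.47 in PcDC1, against 0.245 and 0.0808 in P-IV.II and 0.0688 and 0.0452 in SPM. The 5 dendritic libraries again lay above the 4 macrophage libraries. Runx2 was higher by 1.89 ± 0.19 in PcDC2 over SPM (adjusted p = 0.000340) and by 1.76 ± 0.19 in PcDC2 over P-IV.II (adjusted p = 0.000610). It was higher by 0.90 ± 0.19 in P-IV.I over P-IV.II (adjusted p = 0.0262) and by 1.03 ± 0.19 in P-IV.I over SPM (adjusted p = 0.0120), changes that log2(FPKM + 1) understates at such levels. The first of these calls was lost without any of the 4 libraries concerned (adjusted p of 0.0731 to 0.162), with a pseudocount of 5, after quantile normalization (adjusted p = 0.0571 and 0.0610) and in a fit on only the 2 groups (adjusted p = 0.0735). The second was lost without either SPM library or P-IV.I replicate 1 (adjusted p of 0.0596 to 0.0751). P-IV.I over PcDC2 was -0.86 ± 0.19 (adjusted p = 0.122) although the libraries did not overlap, and P-IV.II over SPM was 0.13 ± 0.19 (adjusted p = 0.808). The locus is crossed on the opposite strand by Supt3 and by the antisense genes Runx2os1, Runx2os2 and Runx2os3, and reads of the 2 strands cannot be told apart here.

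Runx3 and Runx1, the Runt-domain factors of lymphoid and myeloid blood cells, were more abundant than Runx2. Runx3 had 26.7 and 24.0 FPKM in P-IV.I cells, 44.2 and 30.4 in PcDC2 and 15.5 in PcDC1, against 12.4 and 6.20 in P-IV.II and 6.48 and 4.78 in SPM. Runx3 was higher by 2.52 ± 0.35 in PcDC2 over SPM (adjusted p = 0.00164) and by 1.42 ± 0.35 in P-IV.I over P-IV.II (adjusted p = 0.0410). That second call was lost after median-ratio rescaling (adjusted p = 0.0669), after quantile normalization, with no filter, in a fit on only the 2 groups and without P-IV.II replicate 2 or either P-IV.I library (adjusted p up to 0.199). Runx1 was higher in PcDC2 over SPM by 1.94 ± 0.41 (adjusted p = 0.0127), though not without SPM replicate 2 or either PcDC2 library (adjusted p of 0.0572 to 0.0912), and did not pass in P-IV.I over P-IV.II (1.20 ± 0.41, adjusted p = 0.109). Cbfb, the partner subunit of all RUNX proteins, did not pass in either, at 0.08 ± 0.29 (adjusted p = 0.891) and 0.10 ± 0.29 (adjusted p = 0.849). Runx2 made up 2.36% and 2.67% of the summed Runx FPKM in P-IV.I cells, 3.99% and 4.52% in PcDC2 and 5.49% in PcDC1, against 1.04% and 0.679% in P-IV.II and 0.431% and 0.472% in SPM.

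Spib (Entrez 272382, chr7:44525995-44532087, minus strand), an Ets-family relative of PU.1, was the most uneven of the 6 between replicates. It had 49.5 and 8.64 FPKM in P-IV.I cells, 29.5 and 21.8 in PcDC2 and 0.0382 in PcDC1, against 1.29 and 0.122 in P-IV.II and 1.09 and 0.379 in SPM. The 4 libraries of P-IV.I and PcDC2 lay above all others, and PcDC1 lay lowest. Spib was higher by 3.78 ± 0.71 in P-IV.I over P-IV.II (adjusted p = 0.0156), by 3.96 ± 0.71 in PcDC2 over SPM (adjusted p = 0.00581), by 3.7 ± 0.71 in P-IV.I over SPM (adjusted p = 0.0130) and by 4.04 ± 0.71 in PcDC2 over P-IV.II (adjusted p = 0.00583). The P-IV.I calls did not hold without P-IV.II replicate 2 (3.27, adjusted p = 0.0892) or SPM replicate 2 (3.40, adjusted p = 0.0748), and with no filter on low values (adjusted p = 0.0621 and 0.0588). Over the 13 alternatives Spib changed by 2.26 to 5.23 over P-IV.II and by 2.25 to 4.89 over SPM in P-IV.I. P-IV.I averaged 29.1 ± 28.9 FPKM and PcDC2 25.7 ± 5.41 (SD, n = 2 each). Their log2 difference of -0.26 ± 0.71 did not pass (adjusted p = 1), and leaving out P-IV.I replicate 1 made it -1.45 while leaving out replicate 2 made it 0.94. P-IV.II over SPM was -0.08 ± 0.71 (adjusted p = 0.972).

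Spi1, which encodes PU.1 and is the myeloid counterpart of Spib, was abundant throughout. It had 481 and 390 FPKM in P-IV.I cells, 510 and 512 in PcDC2 and 410 in PcDC1, against 408 and 391 in P-IV.II and 390 and 290 in SPM. It did not pass in P-IV.I over P-IV.II (0.12 ± 0.26, adjusted p = 0.8) or in PcDC2 over SPM (0.60 ± 0.26, adjusted p = 0.142). Spib amounted to 10.3% and 2.21% of the FPKM of Spi1 in P-IV.I cells, 5.78% and 4.26% in PcDC2 and 0.00931% in PcDC1, against 0.317% and 0.0311% in P-IV.II and 0.279% and 0.131% in SPM.

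**Figure D3:**
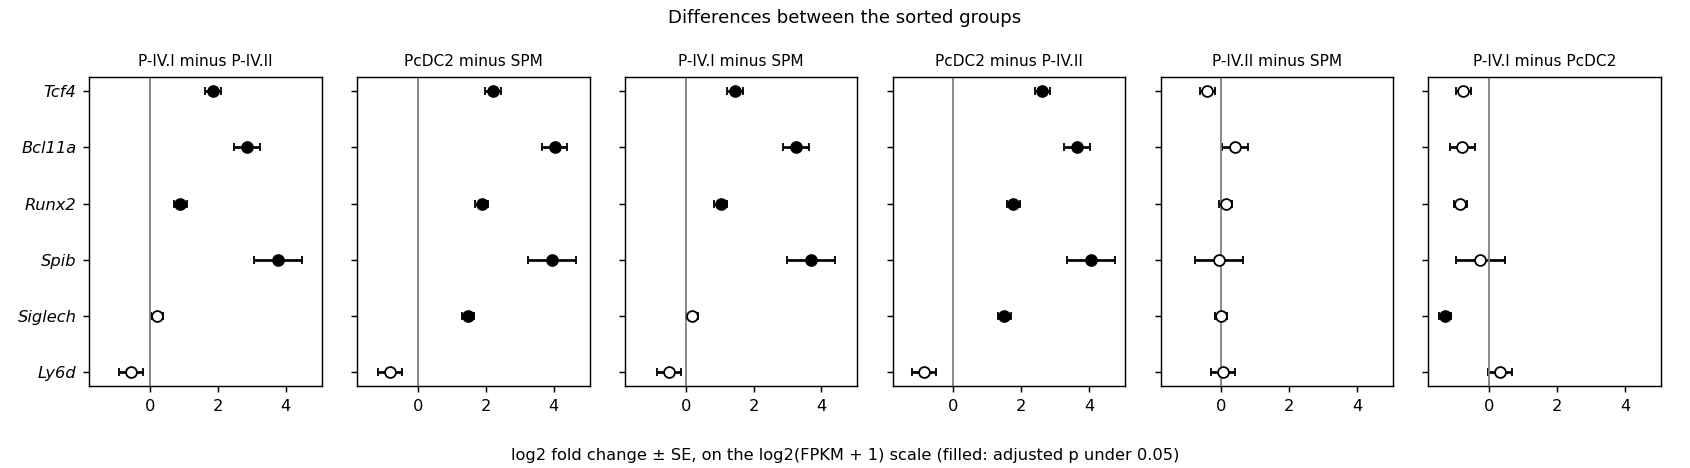
Log2 fold change of each of the 6 genes (x axis, on the log2(FPKM + 1) scale, bars of 1 SE) in the 6 comparisons, with filled circles for an adjusted p under 0.05. In the 4 comparisons of a dendritic with a macrophage group Tcf4, Bcl11a, Runx2 and Spib are filled, from 0.90 for Runx2 in P-IV.I over P-IV.II to 4.04 for Spib in PcDC2 over P-IV.II, and Ly6d is open throughout.

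Promoter sequence is shown for Bcl11a, Runx2, Spib and Siglech. The reason is that TCF4 binds E-boxes, RUNX proteins bind TGTGGT and these genes were high together with Tcf4 in PcDC2. Each window holds 250 bases before and 50 after the start site of RefSeq on GRCm38.p6, written 5′ to 3′ on the gene's own strand, with E-boxes (CANNTG) in capitals. The windows are chr11:24080445-24080744 for Bcl11a, on the plus strand, chr17:44814578-44814877 for Runx2, on the minus strand, chr7:44532022-44532321 for Spib, on the minus strand, and chr7:55767934-55768233 for Siglech, on the plus strand. The start site used lies inside the outermost annotated start for all 4 genes.
Bcl11a: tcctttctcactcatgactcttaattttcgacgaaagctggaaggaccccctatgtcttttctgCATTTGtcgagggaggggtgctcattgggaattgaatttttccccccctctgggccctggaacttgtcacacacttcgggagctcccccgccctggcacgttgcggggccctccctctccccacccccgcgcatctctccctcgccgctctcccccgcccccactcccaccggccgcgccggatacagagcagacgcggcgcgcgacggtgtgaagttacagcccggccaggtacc
Runx2: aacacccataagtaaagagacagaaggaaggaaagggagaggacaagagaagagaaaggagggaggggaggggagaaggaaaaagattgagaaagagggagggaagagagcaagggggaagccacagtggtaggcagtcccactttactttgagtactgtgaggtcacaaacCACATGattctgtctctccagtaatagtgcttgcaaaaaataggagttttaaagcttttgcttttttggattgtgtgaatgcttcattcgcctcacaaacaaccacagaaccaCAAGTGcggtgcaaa
Spib: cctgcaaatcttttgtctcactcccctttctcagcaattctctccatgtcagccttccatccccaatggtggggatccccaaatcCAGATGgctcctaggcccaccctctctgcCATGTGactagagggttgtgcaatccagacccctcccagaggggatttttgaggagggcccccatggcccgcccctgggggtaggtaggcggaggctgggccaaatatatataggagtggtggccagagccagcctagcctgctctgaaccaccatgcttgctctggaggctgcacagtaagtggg
Siglech: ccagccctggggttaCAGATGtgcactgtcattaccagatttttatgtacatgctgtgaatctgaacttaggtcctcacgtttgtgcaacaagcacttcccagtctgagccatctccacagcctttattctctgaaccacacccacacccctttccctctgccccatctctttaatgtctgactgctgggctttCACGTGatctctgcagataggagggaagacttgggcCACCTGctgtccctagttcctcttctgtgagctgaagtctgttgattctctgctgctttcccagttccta
Positions count from the start site. Bcl11a held 1 E-box, at -186, Spib held 2, at -165 and -136, Runx2 held 2, at -78 and 36, and Siglech held 3, at -235, -56 and -20. CANNTG occurs in 72.3% of the 32851 promoter windows of this length, so these matches are common. The E-box form CAGGTG, read on both strands, occurs in 20.2% of windows, and of the 4 only Siglech held this form, at -20, on its other strand. TGTGGT, also read on both strands, occurs in 16.8% of windows. Siglech held it once, at -115, and Runx2 held it 3 times, at -80, 24 and 32, where the matches at -80 and 32 share bases with the E-boxes at -78 and 36. The Ets motif AGGAAGT, found in 9.4% of windows, was in none of the 4, while its core GGAA, found in 96.0% of windows, was in all 4. A match is a description of these letters and not a bound site.

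Siglech (Entrez 233274, chr7:55768154-55779448, plus strand) encodes a receptor that signals through the adaptor DAP12. It had 0.172 and 0.130 FPKM in P-IV.I cells, 2.03 and 1.65 in PcDC2 and 0.171 in PcDC1, and was listed at 0 in both P-IV.II libraries and at 0 and 0.0124 FPKM in SPM. Only PcDC2 passed 1 FPKM, at a level above 64.6% and 62.9% of the genes of the table. Siglech passed the filter through PcDC2 alone, so its calls in comparisons with PcDC2 are not independent of that filter. Siglech was higher in PcDC2 over SPM by 1.49 ± 0.18 (adjusted p = 0.000753) and in PcDC2 over P-IV.II by 1.5 ± 0.18 (adjusted p = 0.000899), both as differences in log2(FPKM + 1). Both calls held under all 12 alternatives, over which the differences ran from 0.45 to 4.19 and from 0.45 to 4.27. It was lower in P-IV.I over PcDC2, by -1.30 ± 0.18 (adjusted p = 0.0198), a call lost without any of the 4 libraries concerned (adjusted p of 0.0759 to 0.156) and in a fit on only these 2 groups (adjusted p = 0.0928). In P-IV.I over P-IV.II it did not pass (0.20 ± 0.18, adjusted p = 0.495), nor in P-IV.I over SPM (0.19 ± 0.18, adjusted p = 0.577).

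PcDC2 also had the highest levels of markers of T cells. Their part in the values of Siglech and of the other members was not tested. The 7 T cell markers of the table, Bcl11b among them, summed to 20.3 and 28.5 FPKM in PcDC2, against 9.35 and 7.73 in P-IV.I, 5.71 in PcDC1, 5.42 and 5.91 in P-IV.II and 8.71 and 5.50 in SPM. All 6 tested T cell markers were higher in PcDC2 over SPM, and 0 of them without PcDC2 replicate 2. Over all tested genes 11.2% were called higher in PcDC2 over SPM. Cd3e, a chain of the T cell receptor complex, had 6.53 and 6.72 FPKM in PcDC2, against 2.89 and 1.48 in SPM. Over the 9 libraries Siglech had r = 0.925 with Cd3e and 0.904 with Cd3d, another chain of that complex. With the T cell markers Lck and Cd5 it had 0.802 and 0.783. High values with Cd3e were not particular to Siglech. Cd3e had 0.884 with Runx2, 0.857 with Tcf4, 0.794 with Bcl11a, 0.698 with Spib and -0.492 with Ly6d. The B cell marker sum was 57.0 and 33.8 FPKM in PcDC2, against 56.5 and 52.7 in SPM.

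Among the other sialic-acid-binding receptors and their adaptors, 8 of 10 genes were tested. In P-IV.I over P-IV.II 2 were higher and 1 lower, and in PcDC2 over SPM 2 were higher and 3, Mag, Siglece and Cd33, lower, of which 1 was lower without SPM replicate 2. With all libraries kept, these calls are 37.5% and 62.5% of the tested list, beside 9.61% and 19.7% of all tested genes. Siglecg, an inhibitory receptor of B-1 cells and dendritic cells, had 29.6 and 31.4 FPKM in P-IV.I cells, 45.8 and 44.1 in PcDC2 and 8.79 in PcDC1, against 5.05 and 6.99 in P-IV.II and 2.71 and 3.87 in SPM. It was higher by 2.18 ± 0.25 (adjusted p = 0.00231) in P-IV.I over P-IV.II and by 3.43 ± 0.25 (adjusted p = 8.38e-05) in PcDC2 over SPM. Cd22, the B cell lectin that dampens antigen receptor signals, had 4.55 and 6.88 FPKM in P-IV.I and 16.2 and 15.5 in PcDC2, against 1.49 and 1.03 in P-IV.II and 1.62 and 2.91 in SPM. It was higher by 1.56 ± 0.30 (adjusted p = 0.0163) and by 2.39 ± 0.30 (adjusted p = 0.000913), the first of which did not hold without P-IV.II replicate 2 (adjusted p = 0.101) or P-IV.I replicate 2 (adjusted p = 0.0894). Mag had 1.29 and 1.33 FPKM in P-IV.I and was listed at 0 in PcDC2, against 11.4 and 8.57 in P-IV.II and 7.09 and 3.74 in SPM, and fell by 2.24 ± 0.29 in P-IV.I over P-IV.II (adjusted p = 0.00338). Tyrobp, which encodes DAP12, did not pass, at 426 and 246 FPKM in P-IV.I and 307 and 355 in PcDC2, against 842 and 545 in P-IV.II and 746 and 334 in SPM.

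Ly6d (Entrez 17068, chr15:74762056-74763567, minus strand) stood apart from the other 5. It had 4.73 and 4.01 FPKM in P-IV.I cells, 4.92 and 2.12 in PcDC2 and 10.5 in PcDC1, against 8.07 and 5.83 in P-IV.II and 7.68 and 5.66 in SPM. The P-IV.I and PcDC2 libraries all lay below the macrophage libraries and PcDC1 lay above them. None of the differences passed: -0.55 ± 0.35 in P-IV.I over P-IV.II (adjusted p = 0.339), -0.82 ± 0.35 in PcDC2 over SPM (adjusted p = 0.142), -0.50 ± 0.35 in P-IV.I over SPM (adjusted p = 0.450) and -0.87 ± 0.35 in PcDC2 over P-IV.II (adjusted p = 0.115). P-IV.II over SPM was 0.05 ± 0.35 (adjusted p = 0.965) and P-IV.I over PcDC2 was 0.32 ± 0.35 (adjusted p = 1). Among the 15 other Ly6-family genes only 4 were tested, and 0 of these passed in P-IV.I over P-IV.II by limma and 1 had an unadjusted p under 0.05. In PcDC2 over SPM Ly6e was lower, at 153 and 138 FPKM in PcDC2 against 542 and 299 in SPM, by -1.47 ± 0.43 (adjusted p = 0.0475), a call lost with no filter, with FPKM of at least 5 and without SPM replicate 1 or either PcDC2 library (adjusted p of 0.0515 to 0.214). Ly6 genes are close paralogs, and how shared reads were assigned is not stated.

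The levels of Ly6d ran with those of Cd79a, which encodes a signalling chain of the B cell receptor. Cd79a had 5.98 and 6.06 FPKM in P-IV.I cells, 7.73 and 1.41 in PcDC2 and 17.4 in PcDC1, against 15.5 and 7.34 in P-IV.II and 14.4 and 9.70 in SPM. Pearson's r of log2(FPKM + 1) between the 2 genes was 0.974 over the 9 libraries, the highest for Ly6d by the rule used for likeness, and the points share their library and its depth. There were 0.792 and 0.662 FPKM of Ly6d per FPKM of Cd79a in P-IV.I cells, 0.636 and 1.51 in PcDC2 and 0.603 in PcDC1, against 0.522 and 0.794 in P-IV.II and 0.533 and 0.583 in SPM. The ratio of 8 libraries lay between 0.522 and 0.794, and PcDC2 replicate 2 lay above them. Not every B cell gene moved in this way. Cd79b, the partner chain of Cd79a, had r = -0.11 with Ly6d, and Ms4a1, which encodes CD20, had 0.56. Pax5, the factor that fixes B cell identity, did not exceed 0.204 FPKM and was listed at 0 in 5 libraries.

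Bcl11a and Spib, which B cells also express, had r = -0.481 and -0.652 with Cd79a. With Fcer2a, the low-affinity IgE receptor, Bcl11a had r = 0.673 and Spib 0.929, and with Cd22 Bcl11a had 0.643 and Spib 0.837. There were 3.84 and 3.75 FPKM of Bcl11a per FPKM of Cd79a in P-IV.I cells, 6.42 and 23.0 in PcDC2 and 0.918 in PcDC1, against 0.234 and 0.186 in P-IV.II and 0.141 and 0.113 in SPM. For Spib these ratios were 8.27 and 1.43 in P-IV.I cells, 3.81 and 15.5 in PcDC2 and 0.00219 in PcDC1, against 0.0837 and 0.0166 in P-IV.II and 0.0755 and 0.0390 in SPM. Of the 9 tested B cell markers 1 was higher in P-IV.I over P-IV.II and 2 were higher and 1 lower in PcDC2 over SPM. These calls are 11.1% and 33.3% of the tested markers, beside 9.61% and 19.7% of all tested genes. The first is near the share over all genes. Cd22 was higher in both, Fcer2a was higher in PcDC2 over SPM, and the B cell kinase Blk was lower there. The part of B cells in the Bcl11a and Spib values was not tested. Leaving out 1 library gave 0 to 1 higher in P-IV.I over P-IV.II, with 0 without P-IV.II replicate 2, and in PcDC2 over SPM 0 lower without SPM replicate 2 and 4 lower without PcDC2 replicate 1. The 12 B cell markers of the table summed to 40.1 and 41.5 FPKM in P-IV.I cells, 57.0 and 33.8 in PcDC2 and 32.0 in PcDC1, against 46.8 and 28.4 in P-IV.II and 56.5 and 52.7 in SPM.

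**Figure D4:**
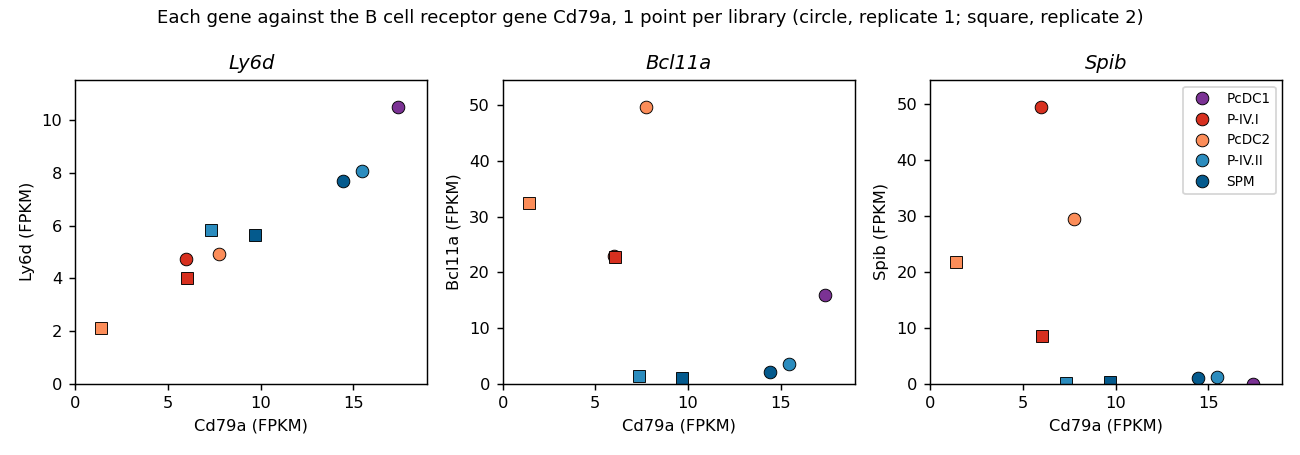
Ly6d, Bcl11a and Spib (y axes, FPKM) against Cd79a (x axes, FPKM), with 1 point per library coloured by sorted group and circles and squares for replicates 1 and 2. Ly6d and Cd79a run together from PcDC2 replicate 2 at 1.41 FPKM of Cd79a to PcDC1 at 17.4, while the highest Bcl11a and Spib values, 49.6 and 49.5 FPKM, lie at 7.73 and 5.98 FPKM of Cd79a.

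Other genes associated with pDCs gave a mixed picture. Of 28 such genes 20 passed the filter on low values, so no count below is a count over the whole list. In P-IV.I over P-IV.II 6 were higher and 2 lower and 12 did not pass, with a median log2 fold change of 0.76 against 0.19 over all tested genes. In PcDC2 over SPM 7 were higher, 1 lower and 12 did not pass, with a median of 0.63 against 0.13. The calls are 40% of the tested list in each comparison, beside 9.61% and 19.7% of all tested genes. Without P-IV.II replicate 2 the first count of higher genes was 2, and without PcDC2 replicate 1 the second was 1. Cd7, an immunoglobulin-family receptor of T cells, natural killer cells and pDCs, had 55.8 and 38.4 FPKM in P-IV.I cells, 160 and 123 in PcDC2 and 3.85 in PcDC1, against 1.17 and 0.619 in P-IV.II and 0.784 and 0.369 in SPM. It was higher by 4.66 ± 0.30 (adjusted p = 0.000381) in P-IV.I over P-IV.II and by 6.50 ± 0.30 (adjusted p = 1.81e-05) in PcDC2 over SPM, and held under all alternatives. Cxcr3, a chemokine receptor, was higher by 2.58 ± 0.33 (adjusted p = 0.00326) and by 1.85 ± 0.33 (adjusted p = 0.00608, and 0.0515 without PcDC2 replicate 1), but its level of 225 FPKM in PcDC1 was far above the 5.48 and 10.9 FPKM of P-IV.I and the 6.98 and 4.70 of PcDC2.

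Irf8, the interferon regulatory factor of type 1 dendritic cells and pDCs, had 45.7 and 122 FPKM in P-IV.I cells, 52.8 and 16.1 in PcDC2 and 1365 in PcDC1, against 9.56 and 4.77 in P-IV.II and 18.2 and 19.6 in SPM. It was higher in P-IV.I over P-IV.II by 3.28 ± 0.62 (adjusted p = 0.0158), but not with no filter on low values (adjusted p = 0.0601) or without P-IV.II replicate 2 or P-IV.I replicate 2 (adjusted p = 0.0921 and 0.0802), and did not pass in PcDC2 over SPM (0.60 ± 0.62, adjusted p = 0.545). Irf7, which drives interferon-alpha genes in pDCs, was higher in P-IV.I over P-IV.II by 1.86 ± 0.29 (adjusted p = 0.00635, and 0.0519 without P-IV.II replicate 2) and did not pass in PcDC2 over SPM (-0.36 ± 0.29, adjusted p = 0.432). Type 1 dendritic cell markers, a list that holds Irf8 and Tlr3 themselves, moved with these values in part. Of 7 tested, 6 were higher in P-IV.I over P-IV.II and 2 in PcDC2 over SPM, beside 6.51% and 11.2% of all tested genes. Batf3, also on this list, did not pass and pointed lower in P-IV.I over P-IV.II (-1.07 ± 0.37, adjusted p = 0.113). It had 57.1 and 40.9 FPKM in P-IV.I, against 120 and 87.6 in P-IV.II. Xcr1, the receptor that defines type 1 dendritic cells, had 5.75 and 9.32 FPKM in P-IV.I cells, 2.44 and 0.450 in PcDC2 and 131 in PcDC1, against 0.140 and 0.110 in P-IV.II and 0.0666 and 0.530 in SPM. The part of type 1 dendritic cells in the Irf8 values was not tested. Blnk, an adaptor of the B cell receptor found in macrophages too, was lower in both comparisons. Its log2 change was -1.32 ± 0.25 in P-IV.I over P-IV.II (adjusted p = 0.0157) and -1.88 ± 0.25 in PcDC2 over SPM (adjusted p = 0.00134).

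Endosomal nucleic acid sensing is the function for which pDCs are known. Of 21 of its genes 16 were tested, of which 3 rose and 0 fell in P-IV.I over P-IV.II by limma, with 8 higher and 0 lower at an unadjusted p under 0.05. In PcDC2 over SPM 2 were higher and 2 lower. These are 18.8% and 25% of the tested list, beside 9.61% and 19.7% of all tested genes. The number higher was 0 without P-IV.II replicate 2 in the first comparison and 0 without PcDC2 replicate 2 in the second. Tlr9, the DNA receptor of pDCs, stayed between 0.0919 and 0.648 FPKM and was not tested. Tlr7, the receptor for single-stranded RNA, had 0.717 and 0.961 FPKM in P-IV.I cells, 0.231 and 0.232 in PcDC2 and 0 in PcDC1, against 0.392 and 0.399 in P-IV.II and 3.78 and 4.24 in SPM. It fell by 2.02 ± 0.19 in PcDC2 over SPM (adjusted p = 0.000243), as did Tlr8 by 3.85 ± 0.29 (adjusted p = 8.97e-05), and both held under all alternatives. Tlr3, the double-stranded RNA receptor of type 1 dendritic cells, was higher in P-IV.I over P-IV.II by 2.05 ± 0.34 (adjusted p = 0.00854), but not without P-IV.II or P-IV.I replicate 2 (adjusted p = 0.0595 and 0.0521). Traf6, an adaptor of these receptors, was higher by 1.31 ± 0.32 (adjusted p = 0.0395) and 1.44 ± 0.32 (adjusted p = 0.0151), calls lost without any of the 4 libraries (adjusted p of 0.0548 to 0.199) and without SPM replicate 1 or PcDC2 replicate 2 (adjusted p = 0.0691 and 0.126), the first also after median-ratio rescaling (adjusted p = 0.0660). Irf7 and, in PcDC2, Traf3 made up the other higher genes, and the Traf3 call was lost without SPM replicate 2 or either PcDC2 library (adjusted p of 0.0612 to 0.0704). Of the interferon genes, Ifna2 was listed at 0 throughout and Ifnb1 had 2.00 and 1.40 FPKM in P-IV.I and 1.07 and 1.14 in PcDC2, against 5.59 and 0.0383 in P-IV.II and 0.177 and 0 in SPM.

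Transcription factors of dendritic cells at large were called in part. Of 14 tested, 5 rose, 1 fell and 8 did not pass in P-IV.I over P-IV.II, which is 42.9% called beside 9.61% of all tested genes. In PcDC2 over SPM 6 rose, 1 fell and 7 did not pass, which is 50% beside 19.7%. The 5 were 3 without P-IV.II replicate 2, and the 6 were 4 whichever 1 of the PcDC2 and SPM libraries was left out. The genes Irf8, Cbfa2t3 and Zeb2 of this list also stand in the pDC list. The gene that fell was Id2 in both. Zbtb46, which marks conventional dendritic cells and is not a pDC gene, had 68.3 and 82.6 FPKM in P-IV.I cells, 103 and 106 in PcDC2 and 27.0 in PcDC1, against 5.04 and 7.25 in P-IV.II and 2.03 and 3.92 in SPM. It was higher by 3.43 ± 0.30 (adjusted p = 0.000971) and by 4.77 ± 0.30 (adjusted p = 4.06e-05). Mycl, a MYC-family factor, was higher by 3.75 ± 0.27 (adjusted p = 0.000452) and by 3.76 ± 0.27 (adjusted p = 7.15e-05). Bcl6 was higher by 2.84 ± 0.42 (adjusted p = 0.00538) and by 2.1 ± 0.42 (adjusted p = 0.00948), the second of which was lost without SPM replicate 2 or PcDC2 replicate 2 (adjusted p = 0.0511 and 0.0691). Relb, an NF-kappaB subunit, was higher by 1.81 ± 0.29 in P-IV.I over P-IV.II (adjusted p = 0.00783) and by 2.56 ± 0.29 in PcDC2 over SPM (adjusted p = 0.000570).

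The dendritic to macrophage difference was compared between 2 settings, P-IV.I over P-IV.II inside the CD11c+ CD115+ gate and PcDC2 over SPM outside it. By limma's interaction contrast 0 of the 6 genes differed, and 2, Siglech and Runx2, had an unadjusted p under 0.05, where 1.11% of all tested genes passed, 1.01% as higher and 0.105% as lower. The difference was -1.29 ± 0.25 for Siglech (adjusted p = 0.0628), -1 ± 0.27 for Runx2 (adjusted p = 0.196) and -1.18 ± 0.54 for Bcl11a (adjusted p = 0.514). It was -0.36 ± 0.33 for Tcf4 (adjusted p = 0.735), -0.18 ± 1 for Spib (adjusted p = 0.963) and 0.27 ± 0.49 for Ly6d (adjusted p = 0.872). With no filter on low values 1 of the 6, Siglech, passed.

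Likeness of pattern was measured as Pearson's r of log2(FPKM + 1) over the 9 libraries, among tested genes with a group mean of at least 10 FPKM. It is a description, since the libraries fall into 5 groups and share their depth between genes. Among the 6 genes, Bcl11a and Runx2 were closest at 0.961, Tcf4 had 0.934 with each of them, 0.881 with Spib and 0.829 with Siglech, and Ly6d had -0.471 to -0.696 with the other 5. The genes most like Tcf4 were Chst15 at 0.994, Nfkb1 at 0.993, Nedd4 at 0.991, and Sh2d3c and Tspan9 at 0.988. Nfkb1, for instance, had 86.8 and 92.2 FPKM in P-IV.I cells, 174 and 149 in PcDC2 and 37.1 in PcDC1, against 16.5 and 13.5 in P-IV.II and 20.3 and 20.6 in SPM. Bcl11a was most like Cd2ap at 0.992, Ece1 at 0.990, and Itpr1, Nccrp1 and Nup210 at 0.986, and the genes most like Runx2 included Ppp1r14a at 0.995, Eno3 at 0.991, Ptp4a3 at 0.990 and Mreg at 0.980.

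The genes most like Spib shared the gap between its P-IV.I libraries in part. They were Rgs3 at 0.979, Trappc5 at 0.978, Clec2i at 0.973, and Sf1 and Klra17 at 0.971, and Klra17 had 17.1 and 5.85 FPKM in P-IV.I and 20.8 and 24.7 in PcDC2, against 0.316 and 0.148 in P-IV.II and 0.0640 and 0.223 in SPM. Siglech was most like Lrrc57 at 0.968, Rtn4rl1 at 0.914, Xkrx at 0.908, Cep63 at 0.882 and Cacnb3 at 0.880, a ranking that leaves out genes of lower level such as Cd3e and Cd3d. After Cd79a, the genes most like Ly6d included Rhob at 0.955, Psen2 at 0.923 and Gatad1 at 0.921.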

How the data were processed

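RNA sequencing of sorted peritoneal cells was deposited as FPKM for 24532 genes in 9 libraries. Per the labels' protocols the SMARTer Ultra Low kit gave the cDNA, which was sequenced on a NovaSeq. Per the submitters' processing notes bcl2fastq 1.8.4, HISAT2 2.1.0, StringTie 1.3.4d, Cufflinks and the build mm10 were used, but their roles are not given. The authors call the deposited values normalized without saying how. The FPKM did not give back whole reads (within 1%, 3.28% of 1189 genes of low value had the most frequent ratio between libraries), so depth is unknown.

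The 10526 genes that reached 1 FPKM in 2 or more libraries were kept, and log2(FPKM + 1) was fitted by group over the 9 libraries with limma 3.58.1 in R 4.3.3 (eBayes with a variance trend, 4 residual and 4.02 prior degrees of freedom). P-values are two-sided and adjusted by Benjamini-Hochberg over all tested genes within each comparison, at 0.05. PcDC1, with 1 library, entered no comparison. The members and gene lists were chosen with earlier results of these data known, and 4 of the 176 list genes were not analysed here. Named genes are the 6 members, up to 4 passing and 2 not passing per list with the largest changes, markers by level, and per member the 5 genes of highest Pearson r with a group mean FPKM of at least 10, predicted genes, pseudogenes and antigen receptor segments left out. A few genes that this rule names are not reported here. Cd79b, Ms4a1, Fcer2a, Blk, Cd33, Ifna2, Tlr9, Pacsin1, Smim5 and Dntt were chosen after their values were seen. Promoter windows are from RefSeq on GRCm38.p6 and are shown for 4 of the 6 members. Windows on chromosome 18, where Tcf4 lies, were left out, and none was found for Ly6d.

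Alternatives were pseudocounts of 0.1 and 5, no filter on low values, FPKM of at least 5, rescaling by median ratios, quantile normalization, a fit with no trend, a block on the replicate number, a fit on only the groups compared, and each library left out in turn. The counts of list genes under these alternatives were added after seeing the data.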

Additional observations from a re-analysis of the deposited data

Results flagged for a closer look

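The change of Tlr7 differed between P-IV.I over P-IV.II and PcDC2 over SPM by 2.42 ± 0.27 on the log2 scale (limma interaction contrast, adjusted p = 0.00812), with 0.40 ± 0.19 in the first and -2.02 ± 0.19 in the second comparison. That of Tlr8 differed by 3.35 ± 0.41 (adjusted p = 0.0108), with -0.50 ± 0.29 in the first and -3.85 ± 0.29 in the second. Tlr8 had 3.49 and 5.07 FPKM in P-IV.I and 0.572 and 0.0611 in PcDC2, against 7.35 and 5.52 in P-IV.II and 18.4 and 16.9 in SPM, and was listed at 0 in PcDC1.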

How the results depend on the processing

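Over the alternatives, single-gene values of the 6 genes were counted in the 6 comparisons between groups, without the interaction contrast. The direction and the side of the threshold were kept in 427 of them. Another 20 fell below the threshold, 2 rose above it and 7 changed sign. With FPKM of at least 5 in 2 libraries, which drops Siglech and Runx2, the number of the 6 genes called was 3 in PcDC2 over P-IV.II, 3 in PcDC2 over SPM and 0 in P-IV.I over PcDC2. It was also 0 in P-IV.I over PcDC2 in a fit on only those groups, and 1 in the interaction contrast with no filter on low values. Leaving out each library in turn gave 2 to 3 genes called in P-IV.I over P-IV.II, 2 to 4 in P-IV.I over SPM, 5 in both PcDC2 over P-IV.II and PcDC2 over SPM, and 0 in P-IV.I over PcDC2, P-IV.II over SPM and the interaction contrast, with a lone library taken to vary like the other groups. The lowest counts came without P-IV.II replicate 2 (2) and without SPM replicate 2 or P-IV.I replicate 1 (2). Signs changed only among differences that did not pass. In P-IV.II over SPM Bcl11a ran from -0.09, without P-IV.II replicate 1, to 0.87, Spib from -0.60 to 0.22 without SPM replicate 1 and 0.44 without P-IV.II replicate 2, and Ly6d from -0.15 without P-IV.II replicate 1 and -0.14 without SPM replicate 2 to 0.25. In P-IV.I over PcDC2 Spib ran from -1.45 to 0.94 without P-IV.I replicate 2 and Ly6d from -0.14 without PcDC2 replicate 2 to 0.78. The cause was not tested.

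Median-ratio rescaling moved the median of all tested genes in P-IV.I over P-IV.II to 0.04, against 0.19 as deposited, and for P-IV.I over SPM to -0.02, against 0.12. After it the 4 genes that passed in P-IV.I over P-IV.II changed by 1.71 (Tcf4), 2.69 (Bcl11a), 0.82 (Runx2) and 3.64 (Spib) and still passed. What a replicate number marks is not stated. Deviations of same-numbered libraries correlated at 0.71 (P-IV.II with SPM), 0.55 (P-IV.I with SPM) and 0.34 (P-IV.I with P-IV.II) between the CD115+ groups, but at 0.04 (PcDC2 with SPM), 0.05 (PcDC2 with P-IV.II) and -0.28 (P-IV.I with PcDC2) with PcDC2, so the numbers were not taken as pairing the samples. With a replicate block 4, 6, 4, 6, 0 and 1 of the 6 genes were called in P-IV.I over P-IV.II, PcDC2 over SPM, P-IV.I over SPM, PcDC2 over P-IV.II, P-IV.II over SPM and P-IV.I over PcDC2, and 0 in the interaction contrast. Ly6d then passed as lower in PcDC2 over SPM (adjusted p = 0.0448) and in PcDC2 over P-IV.II (adjusted p = 0.0347), beside adjusted p up to 0.625 and 0.542 over the other alternatives. Over all genes the block gave 1615 calls in P-IV.I over P-IV.II, beside 1012 without it, and 302 in P-IV.I over PcDC2 with the PcDC2 numbers crossed, an alternative chosen after seeing the data, beside 77. Over all alternatives the calls over all genes ran from 366 to 1615 in P-IV.I over P-IV.II, 1089 to 2790 in PcDC2 over SPM, 554 to 1653 in P-IV.I over SPM, 924 to 3056 in PcDC2 over P-IV.II, 7 to 193 in P-IV.II over SPM and 15 to 302 in P-IV.I over PcDC2. The lowest of these counts came without P-IV.I replicate 1 in P-IV.I over P-IV.II and over SPM, without PcDC2 replicate 2 in the comparisons with PcDC2, and in a fit on only the groups compared in P-IV.II over SPM. Depth is unknown, so levels near 0, such as Siglech outside PcDC2, carry no counting interval.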
